A study of Equus caballus with 15 samples.

Results

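The genes described here encode the machinery that carries a signal from the interleukin-1 (IL-1) receptor and the tumor necrosis factor (TNF) receptor to NF-kB, a family of transcription factors. The members were a list of 47 gene symbols covering NF-kB subunits, inhibitory IkB proteins, kinases, adaptors and feedback genes, and they were chosen by gene name. Of the 47 symbols, 45 were found among 16932 protein-coding genes of the horse. BCL3 and BIRC2 were not found under these symbols and were not analysed here. All 45 had a mean of at least 1 CPM (read counts of a gene scaled to the total of its library), the minimum for testing, as did 11628 of all genes.

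Messenger RNA was measured in equine macrophages grown from blood monocytes of 2 horses for 5 days with M-CSF, a macrophage growth factor, at 30 ng/ml. All conditions shared this culture, and each of the 5 conditions had 3 libraries. Untreated macrophages received no cytokine, and the IL-1ß condition received IL-1ß alone at 10 ng/ml for 24 h. The remaining 3 conditions received the same IL-1ß together with an orthobiologic therapy (OT) at 25% of the medium. These were MSC-CM (medium conditioned by mesenchymal stromal cells of bone marrow), PRP lysate (lysed platelet rich plasma) and ACS (autologous conditioned serum), which came from 3 donor horses that did not supply the macrophages. The study describes the IL-1ß and untreated libraries as technical replicates, whereas each OT was made from 3 donor horses. All conditions shared 1 pooled estimate of the spread, so the p-values mix the spread between cultures or libraries with that between OT donors. The labels do not say which blood donor supplied each library. Each OT was added together with IL-1ß, so no condition shows an OT without the cytokine. ACS libraries are numbered here 1 to 3 only to tell them apart. Per the labels the cells were collected at the end of 24 h of treatment, whereas the study's text has them washed and kept in culture for a further 24 h before collection for RNA. Which of these holds for the libraries is not settled by the sources used here.

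Without a signal, NF-kB dimers are held in the cytoplasm by IkB proteins. The IL-1 receptor recruits the adaptor MYD88, kinases of the IRAK family and the ubiquitin ligase TRAF6, which switch on the kinase TAK1 and then the IkB kinase complex. That complex marks IkB for degradation, NF-kB enters the nucleus, and among the genes it switches on in macrophages are its own inhibitors, such as NFKBIA and TNFAIP3, which end the response. Much of this control acts on proteins by phosphorylation and ubiquitin, and messenger RNA levels do not measure it.

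The libraries held 28410735 to 47894072 counted reads, and a single read was worth 0.0209 to 0.0352 CPM. IL-1ß replicate 3 and PRP lysate replicate 1 stood apart from the rest on the first principal component of all tested genes, which held 55.4% of the variance, at -103 and -51.7 against -20.7 to 26.6 in the others. Summed T cell markers (6 of 6 markers found) came to 1431 CPM in IL-1ß replicate 3 against 772 and 866 CPM in replicates 1 and 2 of IL-1ß, and to 1493 CPM in PRP lysate replicate 1 against 743 and 868 CPM in the other PRP lysate libraries. Summed macrophage markers (10 of 11 found) were lowest in the same libraries of these conditions, at 3433 and 2038 CPM. All 10 macrophage markers found averaged at least 1 CPM, with CD14, a defining monocyte marker, at 2.49 CPM. Summed NK cell markers (5 of 5 found) were also highest in these libraries of their conditions, at 532 CPM in IL-1ß replicate 3 against 255 and 307 CPM, and at 815 CPM in PRP lysate replicate 1 against 361 and 402 CPM. T cell markers differed between conditions as well, at 1066 to 1130 CPM with MSC-CM against 670 to 830 CPM with ACS. Summed neutrophil markers (3 of 5 found) came to 485 to 759 CPM in the PRP lysate and ACS libraries against 268 to 430 CPM in the IL-1ß and MSC-CM libraries. That sum was almost all CSF3R, which macrophages also express, while the granule genes MPO and ELANE averaged 0.78 and 0.109 CPM over all libraries. These sums differed between the conditions whose members are compared in what follows, and their part in the results was not tested. In bulk RNA, fewer cells of a type cannot be told apart from less RNA per cell.

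The IL-1 and NF-kB machinery was transcribed in all 5 conditions. None of the 45 members passed both thresholds in any of 7 comparisons with limma. The thresholds were 0.05 for the p-value, after Benjamini-Hochberg adjustment over all genes tested, and 2-fold for the change in either direction. The same thresholds were passed by 0.292% of all genes for IL-1ß against untreated, 0% for MSC-CM against IL-1ß, 3.09% for PRP lysate against IL-1ß and 2.21% for ACS against IL-1ß. They were passed by 2.61% for PRP lysate against MSC-CM, 1.23% for ACS against MSC-CM and 0.0946% for PRP lysate against ACS, so that a count of 0 in 45 lies near the background and shows nothing particular to the members. The median absolute log2 fold change of the members was 0.31 for IL-1ß against untreated and 0.26, 0.32 and 0.38 for MSC-CM, PRP lysate and ACS against IL-1ß, beside 0.26, 0.22, 0.27 and 0.35 over all genes. Without the fold requirement, TRAF1 in PRP lysate against IL-1ß was the single call over the 7 comparisons, in which 0.387%, 0%, 4.94%, 3.45%, 4.22%, 1.92% and 0.103% of all genes passed, in the order above. That count depended on the setting. It was 3 with RLE or TMM factors (TRAF1, BIRC3 in ACS against IL-1ß and TNFAIP3 in PRP lysate against MSC-CM), 2 with edgeR and 11 with DESeq2. The share of all gene tests over the 7 comparisons was 2.15% with limma, 2.12% with RLE, 2.1% with TMM, 1.55% with edgeR and 3.22% with DESeq2. The count was 5 when each pair of conditions was fitted alone, all in ACS against MSC-CM (BIRC3, CFLAR, NFKB2, NFKBIE and REL), where 13.2% of all genes then passed. In the 4 comparisons with IL-1ß it was 14 without IL-1ß replicate 1 (4 in PRP lysate and 10 in ACS, where 5.49% and 10.1% of all genes passed), 0 without replicate 2 and 3 without replicate 3 (all in PRP lysate, with 5.59% of all genes). edgeR on the recovered reads also called 0 members with both thresholds in all 7 comparisons. DESeq2 called IRAK3 in PRP lysate against IL-1ß (4.1% of all genes) and REL in ACS against IL-1ß (3.39%).

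**Figure D1:**
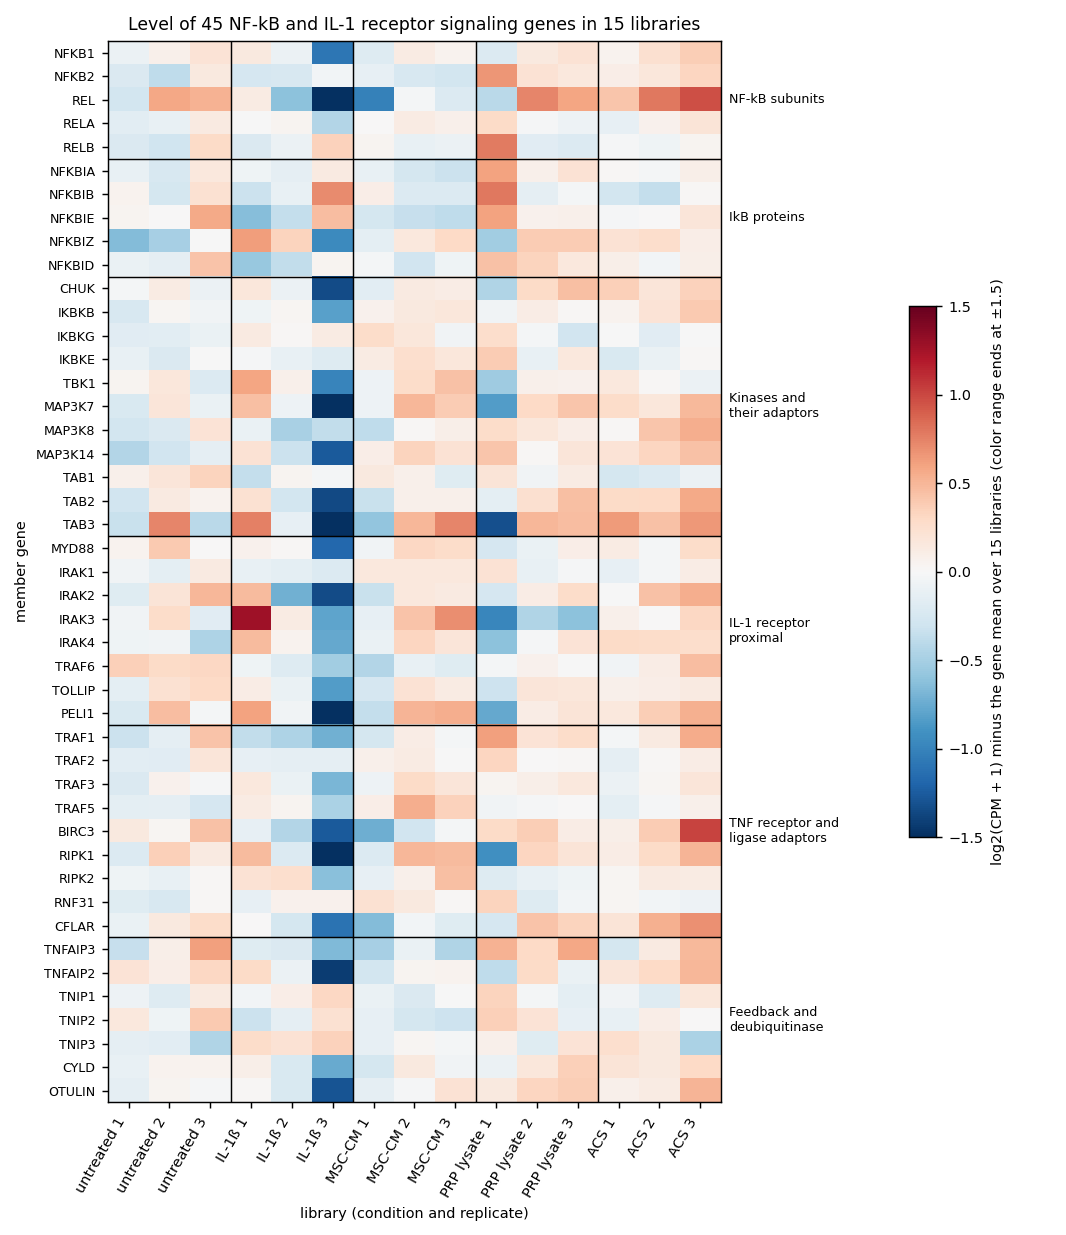
Level of each of the 45 members (rows, grouped by role) in each of the 15 libraries (columns, grouped by condition), as color for log2(CPM + 1) minus the mean of the member over all libraries, with the color range ending at ±1.5. IL-1ß replicate 3 is the darkest blue column and is the lowest of all 15 libraries for 29 of the 45 members.

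With a limma p-value up to 0.05 before adjustment, 5 members differed between IL-1ß and untreated (13% of all genes), 4 between MSC-CM and IL-1ß (5.6%), 13 between PRP lysate and IL-1ß (17.5%) and 15 between ACS and IL-1ß (20.5%). The members higher in the OT were 4 of 4, 12 of 13 and 15 of 15. All genes leaned the same way, with 8279, 7111 and 7032 of 11628 higher in the OT at any p-value. Without IL-1ß replicate 1 the 4 counts of members were 17, 20, 16 and 23, and the shares of all genes moved as well, to 26.4%, 22.7%, 27.3% and 43%. They were 7, 1, 11 and 8 without IL-1ß replicate 3, with 12.2%, 3.02%, 18.9% and 12.9% of all genes. IL-1ß against untreated fell to 1 without untreated replicate 3 (9.61% of all genes), MSC-CM against IL-1ß to 1 without MSC-CM replicate 2 or 3 (1.63% and 3.04%), PRP lysate against IL-1ß to 7 without PRP lysate replicate 3 (13.2%), and ACS against IL-1ß to 6 without ACS replicate 3 (12.9%). When each pair of conditions was fitted alone, the 4 counts were 3, 2, 5 and 6, with 7.06%, 1.77%, 7.93% and 12.1% of all genes. Between the therapies the numbers were 7 for PRP lysate against MSC-CM (14.5% of all genes), 5 for ACS against MSC-CM (13.5%) and 0 for PRP lysate against ACS (5.19%). Leaving out 1 library at a time gave 3 to 7 for PRP lysate against MSC-CM (3 when MSC-CM replicate 2 was left out, and 4 for PRP lysate replicate 1 or MSC-CM replicate 3) and 1 to 7 for ACS against MSC-CM (1 without ACS replicate 3 and 2 without MSC-CM replicate 1), with 10.3% to 18.2% and 8.75% to 11.3% of all genes. PRP lysate against MSC-CM gave 14 members with the replicate number as a block in a fit of these 2 conditions (20.1% of all genes) and 3 with the block over all numbered libraries (10.8%). ACS against MSC-CM gave 13 in a fit of these 2 conditions (29.3%), 9 with RLE factors or DESeq2 (12.3% and 10.3%) and 8 with TMM factors or edgeR (12.3% and 10.9%). Over the 45 members the median log2 fold change was -0.24 for IL-1ß against untreated, beside -0.07 over all genes. It was 0.24 for MSC-CM, 0.30 for PRP lysate and 0.38 for ACS, each against IL-1ß, beside 0.16, 0.11 and 0.13 over all genes. These 4 comparisons share the IL-1ß libraries. Without IL-1ß replicate 3 the medians of the members were -0.04, 0.03, 0.14 and 0.14, and those of all genes were 0.06, 0.05, -0.02 and 0.01.

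Each fold change is on the log2(CPM + 1) scale, which understates the change of genes with few CPM, and each level is in CPM, which is not corrected for gene length, so levels are compared between libraries and not between genes. Positions are those of the EquCab3.0 build in the deposited table.

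Among the 5 subunits, RELA and NFKB1, which form the classical dimer, varied within narrow ranges outside IL-1ß replicate 3. RELA (ENSECAG00000013763, chr12:29517477-29525812) stood at 105, 109 and 130 CPM untreated, 117, 121 and 86.5 CPM with IL-1ß, 118, 128 and 124 CPM with MSC-CM, 144, 117 and 111 CPM with PRP lysate, and 108, 123 and 135 CPM with ACS. The conditions overlapped throughout, and the largest difference from IL-1ß was 0.20 ± 0.156 (log2, SE). NFKB1 (ENSECAG00000015042, chr3:37926954-38031852) stood at 169, 189 and 207 CPM untreated, 199, 169 and 84.3 CPM with IL-1ß, 157, 196 and 186 CPM with MSC-CM, 156, 198 and 209 CPM with PRP lysate, and 187, 211 and 233 CPM with ACS. IL-1ß replicate 3 was the lowest library for NFKB1, and ACS against IL-1ß gave 0.56 ± 0.252 (limma, Benjamini-Hochberg adjusted p = 0.234), which was 0.19 without that library.

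REL, the subunit c-Rel, had the largest difference of any member. REL (ENSECAG00000003277, chr15:41221926-41253656) stood at 79.1, 144 and 138 CPM untreated, 105, 62.6 and 20.3 CPM with IL-1ß, and 47.2, 94.3 and 83.2 CPM with MSC-CM. It stood at 72.7, 160 and 145 CPM with PRP lysate and at 129, 168 and 189 CPM with ACS. All ACS libraries were above all IL-1ß and all MSC-CM libraries, whereas PRP lysate overlapped both, because its replicate 1 was low. ACS against IL-1ß gave a log2 fold change of 1.62 ± 0.5 (SE, limma, Benjamini-Hochberg adjusted p = 0.102), and ACS against MSC-CM gave 1.14 ± 0.5 (limma, Benjamini-Hochberg adjusted p = 0.337). Without IL-1ß replicate 3 the first value was 0.97. PRP lysate against MSC-CM gave 0.72 ± 0.5 (limma, Benjamini-Hochberg adjusted p = 0.63), which passed the adjusted threshold in the fit of these 6 libraries alone with the replicate number as a block (limma, Benjamini-Hochberg adjusted p = 0.0193).

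NFKB2, the precursor of the non-canonical subunit, was measured more evenly. NFKB2 (ENSECAG00000019593, chr1:27918892-27927266) stood at 354, 317 and 456 CPM untreated, 347, 348 and 401 CPM with IL-1ß, 379, 351 and 340 CPM with MSC-CM, 651, 479 and 460 CPM with PRP lysate, and 443, 465 and 518 CPM with ACS. All PRP lysate and ACS libraries were above all IL-1ß and MSC-CM libraries, with PRP lysate replicate 1 the highest. PRP lysate against MSC-CM gave 0.55 ± 0.158 (limma, Benjamini-Hochberg adjusted p = 0.0715) and PRP lysate against IL-1ß 0.52 ± 0.158 (limma, Benjamini-Hochberg adjusted p = 0.085), neither past the threshold. RELB, the partner of NFKB2, averaged 106.99 CPM untreated, 114 CPM with IL-1ß, 107.3 CPM with MSC-CM, 129 CPM with PRP lysate and 110 CPM with ACS, and its PRP lysate replicate 1 stood at 192 CPM against 98.6 and 96.2 CPM in the other PRP lysate libraries.

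The IkB proteins did not pass the adjusted threshold with all libraries, and IL-1ß and untreated macrophages had nearly the same level of NFKBIA. NFKBIA (ENSECAG00000023420, chr1:174103222-174106498), the main cytoplasmic inhibitor, stood at 284, 258 and 342 CPM untreated, 292, 278 and 336 CPM with IL-1ß, 284, 254 and 245 CPM with MSC-CM, 465, 322 and 356 CPM with PRP lysate, and 311, 301 and 326 CPM with ACS. IL-1ß against untreated gave 0.04 ± 0.148, with a 95% interval of -0.28 to 0.36, so a change of 2-fold in either direction lay outside the interval. All PRP lysate libraries were above all MSC-CM libraries, by 0.53 ± 0.148 (limma, Benjamini-Hochberg adjusted p = 0.0668), which was the smallest adjusted p-value of any member in that comparison. All ACS libraries were above all MSC-CM libraries as well, by 0.26 ± 0.148 (limma, Benjamini-Hochberg adjusted p = 0.497).

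NFKBIE, a second cytoplasmic inhibitor (ENSECAG00000019914, chr20:44026651-44032747), stood at 147, 143 and 213 CPM untreated, 91.3, 111 and 197 CPM with IL-1ß, 118, 112 and 110 CPM with MSC-CM, 217, 149 and 150 CPM with PRP lysate, and 141, 144 and 162 CPM with ACS. Here IL-1ß replicate 3 was the highest IL-1ß library, not the lowest. PRP lysate lay above MSC-CM without overlap, by 0.57 ± 0.25 (limma, Benjamini-Hochberg adjusted p = 0.299). NFKBIB behaved alike in these libraries, with IL-1ß replicate 3 at 196 CPM against 95 and 110 CPM and PRP lysate replicate 1 at 207 CPM against 108 and 117 CPM. The nuclear IkB proteins were NFKBIZ, with means of 16.4 to 24.6 CPM over the 5 conditions, and NFKBID, with means of 16.7 to 25.7 CPM. When IL-1ß replicate 3 was left out, NFKBID and NFKBIE passed the adjusted threshold in PRP lysate against IL-1ß, at 0.78 and 0.75 (limma, Benjamini-Hochberg adjusted p = 0.0243 and 0.0425), from 0.61 and 0.42 with it. In the same fit the median of the 5 IkB proteins for IL-1ß against untreated turned from 0.04 to -0.23, with 4 of 5 lower.

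The 11 kinases and their adaptors were lower in IL-1ß than in untreated macrophages in 9 cases and had a median log2 fold change of -0.22, with 0 past the threshold. All 11 were higher in MSC-CM than in IL-1ß, with a median of 0.41, and 9 of 11 were higher in PRP lysate and in ACS than in IL-1ß, with medians of 0.45 and 0.64. Of all genes, 8279 of 11628 were higher in MSC-CM than in IL-1ß. With RLE size factors, which set the median of all genes near 0 there, 9 of 11 kinases and adaptors were higher in MSC-CM, with a median of 0.23. Without IL-1ß replicate 3 the direction against untreated turned, with 9 of 11 higher in IL-1ß and a median of 0.07. All genes turned as well, with 6858 of 11628 higher and a median of 0.06. Against IL-1ß, 7 of 11 were then higher in each OT, with medians of 0.08 for MSC-CM, 0.05 for PRP lysate and 0.23 for ACS. IKBKB (ENSECAG00000002263, chr27:3164403-3211364), a catalytic subunit of the IkB kinase, stood at 63.7, 76.7 and 72.7 CPM untreated, 72.2, 77.1 and 42.6 CPM with IL-1ß, 79.0, 83.6 and 85.2 CPM with MSC-CM, 72.5, 81.5 and 76.4 CPM with PRP lysate, and 78.1, 87.4 and 99.2 CPM with ACS. The MSC-CM and ACS libraries were all above the IL-1ß libraries, by 0.41 ± 0.190 and 0.50 ± 0.190 (limma, Benjamini-Hochberg adjusted p = 0.705 and 0.179). Without IL-1ß replicate 3 these differences were 0.14 and 0.23. TAB3, an adaptor of TAK1, was the least precisely measured member, at 26.9, 14.1 and 1.63 CPM in the IL-1ß libraries, with an SE of 0.734.

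Of the genes nearest the IL-1 receptor, TRAF6 had the smallest adjusted p-value of any member for IL-1ß against untreated. TRAF6 (ENSECAG00000021091, chr12:2961877-3020873) stood at 132, 126 and 127 CPM untreated, 97.8, 89.4 and 71.3 CPM with IL-1ß, 75.4, 95 and 90.6 CPM with MSC-CM, 100, 106.8 and 102 CPM with PRP lysate, and 98.5, 111 and 142 CPM with ACS. All untreated libraries were above all IL-1ß libraries, and so were all PRP lysate and all ACS libraries. IL-1ß against untreated gave -0.58 ± 0.155 (limma, Benjamini-Hochberg adjusted p = 0.147), a ratio of means of 0.673, and -0.45 without IL-1ß replicate 3. DESeq2 on the recovered reads gave -0.53 and passed the adjusted threshold (Benjamini-Hochberg adjusted p = 0.0084). For ACS against MSC-CM, DESeq2 gave 0.48 and passed it too (Benjamini-Hochberg adjusted p = 0.0148), while limma did not.

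MYD88, the receptor's adaptor, and IRAK1, the kinase it recruits, differed less. MYD88 (ENSECAG00000001774, chr16:48700862-48703498) stood at 76.0, 95.8 and 73.3 CPM untreated, 76.6, 73.7 and 31.6 CPM with IL-1ß, 70.6, 90.6 and 88.3 CPM with MSC-CM, 61.0, 68.2 and 78.1 CPM with PRP lysate, and 79.3, 71.6 and 88.4 CPM with ACS. The IL-1ß mean was lowered by replicate 3, and IL-1ß against untreated was -0.52 ± 0.271 with it (limma, Benjamini-Hochberg adjusted p = 0.436) and -0.11 without it. IRAK1 (ENSECAG00000009585, chrX:126516489-126525878) was the most precisely measured member, with an SE of 0.119. It stood at 141, 131 and 160 CPM untreated, 135, 132 and 127 CPM with IL-1ß, 164, 162 and 163 CPM with MSC-CM, 170, 135 and 144 CPM with PRP lysate, and 134, 142 and 158 CPM with ACS. All MSC-CM libraries were above all IL-1ß libraries, by 0.31 ± 0.119 (limma, Benjamini-Hochberg adjusted p = 0.705). The median of all genes in that comparison was 0.16, and the IRAK1 difference was 0.14 with RLE size factors, 0.17 with TMM factors and 0.13 with DESeq2.

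IRAK3, an inhibitory relative of IRAK1 found mainly in monocytes and macrophages, was lowest with PRP lysate. IRAK3 (ENSECAG00000026958, chr6:82861367-82913305) stood at 4.19, 5.49 and 3.76 CPM untreated, 12, 4.83 and 2.11 CPM with IL-1ß, 3.94, 6.25 and 7.70 CPM with MSC-CM, 1.72, 2.92 and 2.50 CPM with PRP lysate, and 4.64, 4.40 and 5.64 CPM with ACS. PRP lysate lay below MSC-CM and below ACS without overlap, while the IL-1ß libraries spread widely. PRP lysate against MSC-CM gave -1.02 ± 0.399 (limma, Benjamini-Hochberg adjusted p = 0.225), and passed both thresholds when these 6 libraries were fitted alone with the replicate number as a block (limma, Benjamini-Hochberg adjusted p = 0.0423). Against IL-1ß it gave -0.89 ± 0.399 (limma, Benjamini-Hochberg adjusted p = 0.268), and without IL-1ß replicate 3 -1.38 (limma, Benjamini-Hochberg adjusted p = 0.0249), which passed both thresholds.

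**Figure D2:**
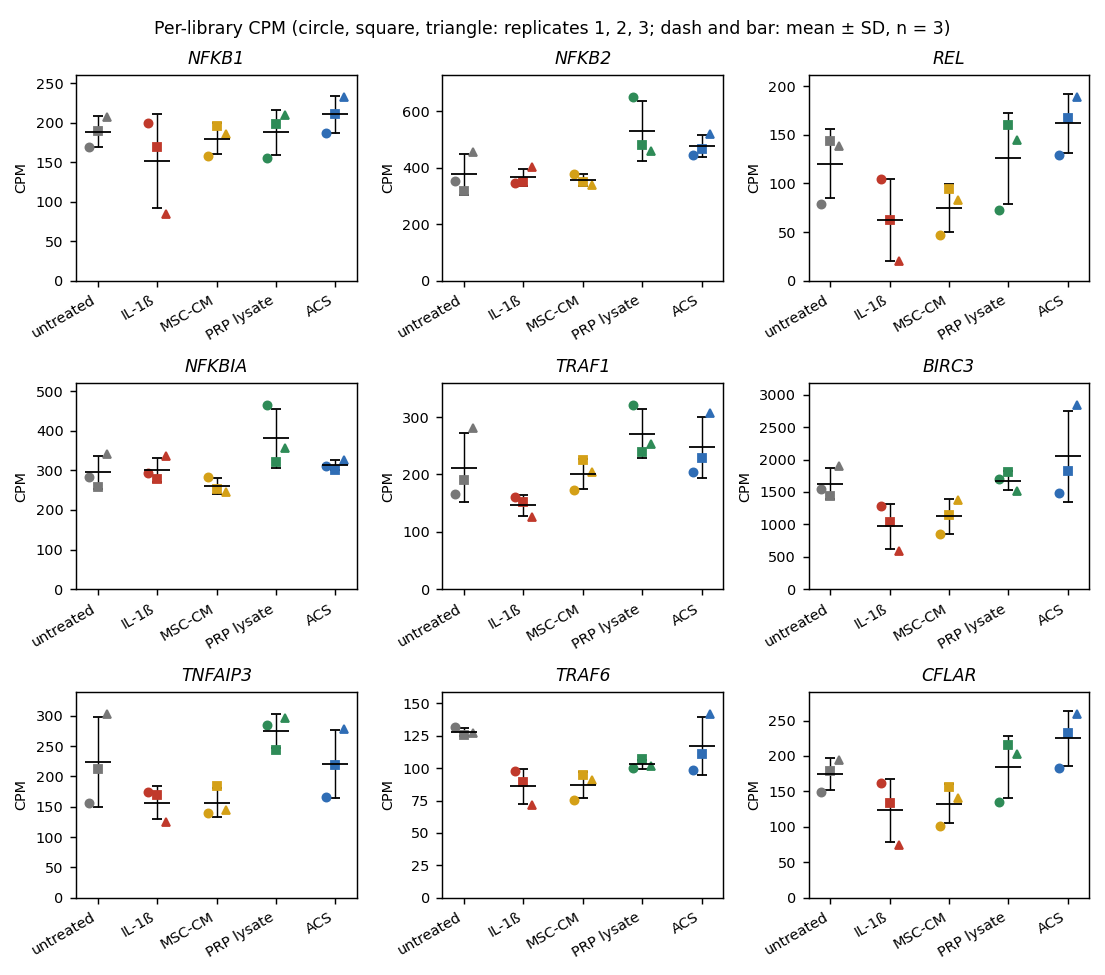
CPM (vertical, from 0) of 9 of the named members by condition, with circles, squares and triangles for replicates 1, 2 and 3 and a dash and bar for the mean and SD (n = 3). TRAF1 lies between 240 and 321 CPM in the PRP lysate libraries and between 126 and 161 CPM in the IL-1ß libraries.

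The adaptors shared with the TNF receptor held the member that passed the adjusted threshold. TRAF1 (ENSECAG00000011454, chr25:25052425-25089766), an adaptor that joins TNF receptor complexes and binds BIRC3, stood at 166, 190 and 280 CPM untreated, 161, 151 and 126 CPM with IL-1ß, 173, 225 and 205 CPM with MSC-CM, 321, 240 and 253 CPM with PRP lysate, and 205, 228 and 308 CPM with ACS. Every library of the other 4 conditions was above every IL-1ß library. TRAF1 rose by 0.89 ± 0.209 in PRP lysate against IL-1ß (limma, Benjamini-Hochberg adjusted p = 0.0277), a ratio of means of 1.86 between 271 ± 43.4 and 146 ± 17.8 CPM (SD, n = 3 libraries). The call was lost, with the direction kept, when PRP lysate replicate 1 (adjusted p = 0.0684 with limma), PRP lysate replicate 3 (adjusted p = 0.0681 with limma), IL-1ß replicate 2 (adjusted p = 0.0709 with limma) or IL-1ß replicate 3 (adjusted p = 0.063 with limma) was left out. It was also lost when PRP lysate and IL-1ß were fitted alone (adjusted p = 0.161 with limma). ACS against IL-1ß gave 0.74 ± 0.209 (limma, Benjamini-Hochberg adjusted p = 0.0768), MSC-CM against IL-1ß gave 0.46 ± 0.209 (limma, Benjamini-Hochberg adjusted p = 0.705) and IL-1ß against untreated gave -0.51 ± 0.209 (limma, Benjamini-Hochberg adjusted p = 0.333).

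BIRC3, a ubiquitin ligase of TNF receptor complexes (ENSECAG00000012229, chr7:12772369-12821261), stood at 1550, 1434 and 1903 CPM untreated, 1282, 1037 and 586 CPM with IL-1ß, 845, 1152 and 1371 CPM with MSC-CM, 1706, 1810 and 1513 CPM with PRP lysate, and 1486, 1821 and 2840 CPM with ACS. The untreated, PRP lysate and ACS libraries were all above the IL-1ß and the MSC-CM libraries. ACS against IL-1ß gave 1.10 ± 0.289 (limma, Benjamini-Hochberg adjusted p = 0.0578), the smallest adjusted p-value of any member in that comparison, and 0.77 without IL-1ß replicate 3. It passed the adjusted threshold with limma on RLE or TMM factors (Benjamini-Hochberg adjusted p = 0.0472 and 0.0457) and with DESeq2 (Benjamini-Hochberg adjusted p = 0.0073), and DESeq2 passed it for ACS against MSC-CM too (Benjamini-Hochberg adjusted p = 0.0201). PRP lysate against IL-1ß gave 0.86 ± 0.289 (limma, Benjamini-Hochberg adjusted p = 0.121), ACS against MSC-CM gave 0.84 ± 0.289 (limma, Benjamini-Hochberg adjusted p = 0.186) and IL-1ß against untreated gave -0.81 ± 0.289 (limma, Benjamini-Hochberg adjusted p = 0.258). Without IL-1ß replicate 3 BIRC3 differed by 0.54 in PRP lysate against IL-1ß and by -0.49 in IL-1ß against untreated.

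CFLAR encodes cFLIP, which blocks caspase activation at death receptors. CFLAR (ENSECAG00000021300, chr18:76300966-76324393) stood at 150, 178 and 195 CPM untreated, 161, 134 and 74.1 CPM with IL-1ß, 102, 156 and 141 CPM with MSC-CM, 135, 216 and 203 CPM with PRP lysate, and 183, 232 and 260 CPM with ACS. The ACS libraries were above all IL-1ß and MSC-CM libraries, and PRP lysate overlapped both. ACS against IL-1ß gave 0.92 ± 0.276 (limma, Benjamini-Hochberg adjusted p = 0.0935), which was 0.60 without IL-1ß replicate 3, and ACS against MSC-CM gave 0.76 ± 0.276 (limma, Benjamini-Hochberg adjusted p = 0.214). Both differences passed the adjusted threshold with DESeq2 (Benjamini-Hochberg adjusted p = 0.0215 and 0.0195). The other adaptors of this group that were found, TRAF2, TRAF3, TRAF5, RIPK1, RIPK2 and RNF31, did not pass the adjusted threshold in any comparison.

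Among the feedback genes, TNFAIP3, which encodes the ubiquitin-editing enzyme A20, was highest with PRP lysate. TNFAIP3 (ENSECAG00000009626, chr10:84269978-84280743) stood at 155, 212 and 303 CPM untreated, 174, 170 and 125 CPM with IL-1ß, 140, 185 and 145 CPM with MSC-CM, 285, 243 and 296 CPM with PRP lysate, and 165, 218 and 278 CPM with ACS. PRP lysate lay above IL-1ß and MSC-CM without overlap, and ACS overlapped both. PRP lysate against IL-1ß gave 0.82 ± 0.243 (limma, Benjamini-Hochberg adjusted p = 0.0784) and PRP lysate against MSC-CM gave 0.81 ± 0.243 (limma, Benjamini-Hochberg adjusted p = 0.0881). DESeq2 passed the adjusted threshold in both comparisons (Benjamini-Hochberg adjusted p = 0.034 and 0.005), and edgeR in the second (Benjamini-Hochberg adjusted p = 0.0467). So did limma in the second with RLE or TMM factors (Benjamini-Hochberg adjusted p = 0.0325 and 0.0368), and with the replicate number as a block in a fit of PRP lysate and MSC-CM alone (Benjamini-Hochberg adjusted p = 0.0254). IL-1ß and MSC-CM had the same mean, 157 CPM, and their difference was 0.01 ± 0.243.

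TNIP3, which binds A20, was the member most above untreated in IL-1ß. TNIP3 (ENSECAG00000010953, chr2:107149785-107250185) stood at 9.88, 9.75 and 7.76 CPM untreated, 13.5, 12.9 and 14.2 CPM with IL-1ß, 10.0, 11.2 and 10.7 CPM with MSC-CM, 11.6, 9.59 and 12.8 CPM with PRP lysate, and 13.2, 12.3 and 7.64 CPM with ACS. The IL-1ß libraries were above all untreated, MSC-CM and PRP lysate libraries. IL-1ß against untreated gave 0.53 ± 0.195 (limma, Benjamini-Hochberg adjusted p = 0.277), and IL-1ß replicate 3 lay close to the other IL-1ß libraries. All 7 feedback and deubiquitinase genes had a higher log2 fold change than 0 in ACS against MSC-CM, from 0.02 to 0.47, with a median of 0.23 beside -0.04 over all genes and 0 past the threshold.

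**Figure D3:**
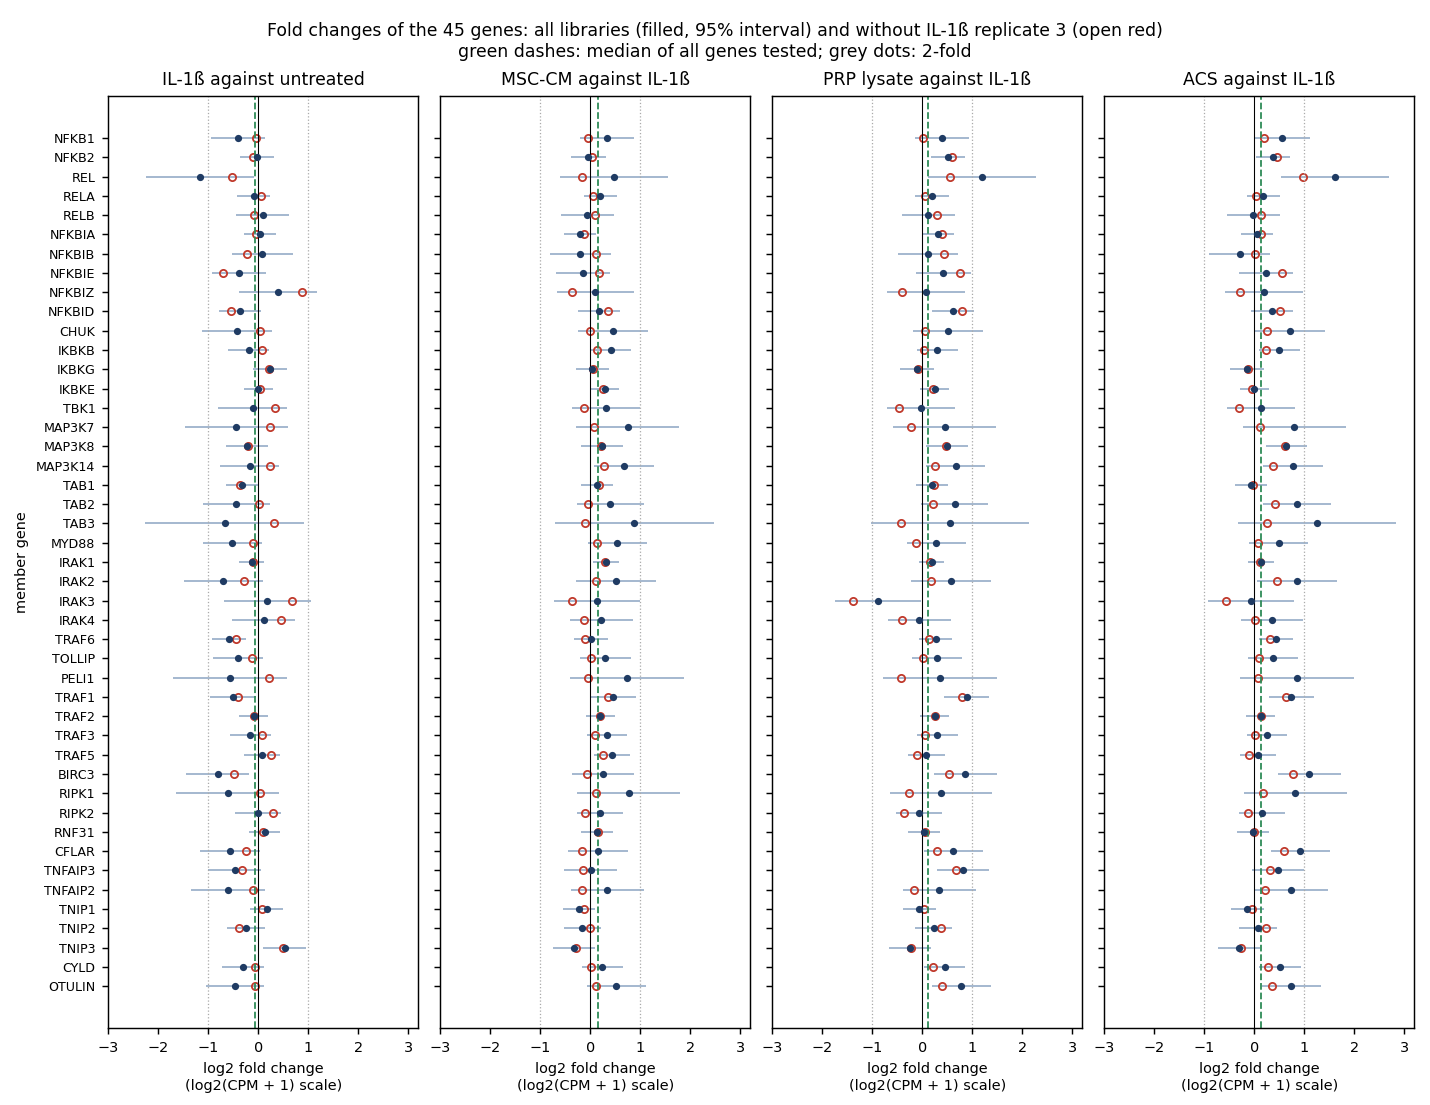
Log2 fold change (horizontal, log2(CPM + 1) scale) of each of the 45 members in the 4 comparisons that use the IL-1ß libraries, with filled points and 95% intervals from all libraries, open red points without IL-1ß replicate 3, green dashes for the median of all genes and grey dots at 2-fold. REL in ACS against IL-1ß moves from 1.62 to 0.97 without that library, while TRAF1 in PRP lysate against IL-1ß moves from 0.89 to 0.78.

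The 95% interval of the log2 fold change lay wholly within 2-fold in either direction for 30 of 45 members in IL-1ß against untreated, 32 in MSC-CM against IL-1ß, and 28 in PRP lysate and in ACS against IL-1ß. It did so for 34 members in PRP lysate against MSC-CM, 34 in ACS against MSC-CM and 35 in PRP lysate against ACS. For the rest, the interval reached beyond 2-fold in at least 1 direction. An exact permutation test of 3 libraries against 3 cannot give a p-value under 0.1, so lack of overlap is given as a description. Members whose libraries did not overlap numbered 6 for IL-1ß against untreated (16.2% of all genes), 6 for MSC-CM against IL-1ß (8.79%), 10 for PRP lysate against IL-1ß (15%) and 13 for ACS against IL-1ß (26.2%). They numbered 12 for PRP lysate against MSC-CM (19.4%), 14 for ACS against MSC-CM (35.1%) and 5 for PRP lysate against ACS (15.6%). Most of them were higher in the OT, with 9 of the 10 for PRP lysate against IL-1ß (8.5% of all genes did not overlap and were higher) and 12 of the 13 for ACS against IL-1ß (14.9%).

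PRP lysate and ACS did not differ past the threshold in any member, and the smallest adjusted p-value was 0.842 with limma and Benjamini-Hochberg adjustment. With a p-value up to 0.05 before adjustment, the main limma fit found 0 members (5.19% of all genes). edgeR and DESeq2 found 1 each (4.56% and 4.81%). limma also found 1 with RLE or TMM factors (4.997% and 5.05%) and 1 when these conditions were fitted alone (5.44%). Leaving out PRP lysate replicate 2 gave 2 (8.45%), and leaving out any other library of these conditions gave 0. The 5 members without overlap, chosen after their values were seen, were NFKBID and TAB1, which were higher in PRP lysate, and IRAK3, IRAK4 and RIPK2, which were lower.

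Members differed in how far they were displaced in the libraries that stood apart. The ratio of IL-1ß replicate 3 to the mean of the other IL-1ß libraries ran from 0.0793 for TAB3 to 1.95 for NFKBIE. It was under 0.5 in 17 of 45 members, beside 31.8% of all genes, and over 1 in 12 members. The lowest ratios after TAB3 belonged to PELI1, a ubiquitin ligase acting on IRAK1, at 0.17, MAP3K7, which encodes TAK1, at 0.21, REL at 0.24 and RIPK1 at 0.24. The highest belonged to NFKBIE, NFKBIB at 1.91, NFKBID at 1.45 and RELB at 1.41.

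**Figure D4:**
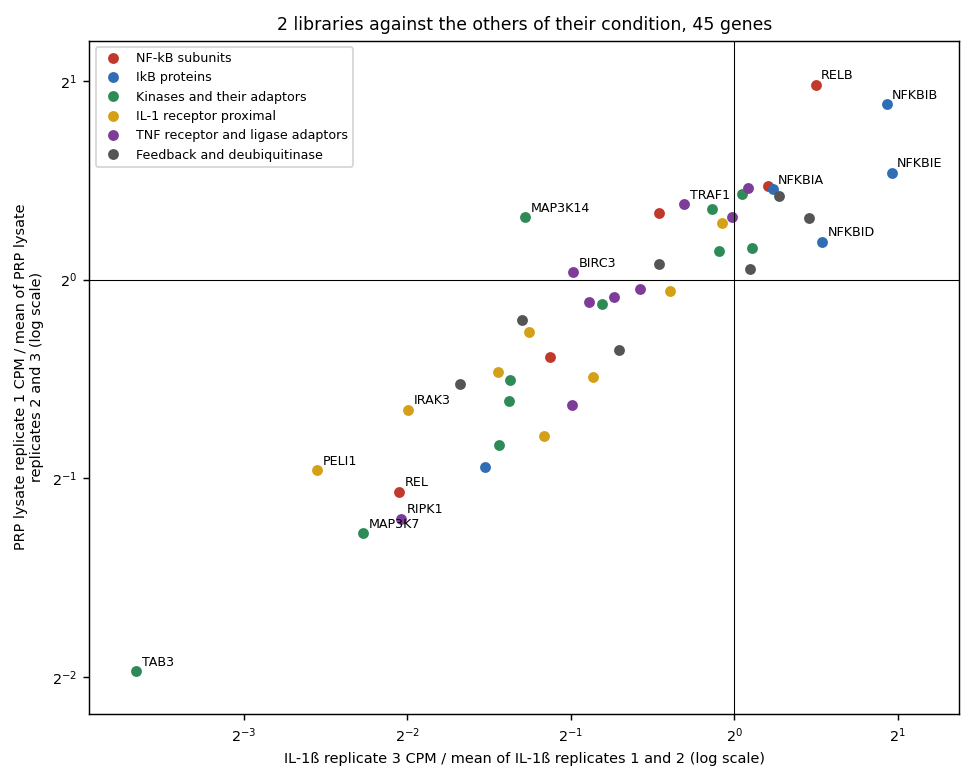
CPM of each member in IL-1ß replicate 3 divided by the mean of the other IL-1ß libraries (horizontal) and in PRP lysate replicate 1 divided by the mean of the other PRP lysate libraries (vertical), both on log axes. All 12 members with a ratio over 1 on the horizontal axis are also over 1 on the vertical axis, and 24 members are under 1 on both.

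The ratio of PRP lysate replicate 1 to the mean of the other PRP lysate libraries lay on the same side of 1 as the IL-1ß replicate 3 ratio in most members, as in most genes. Both ratios were above 1 in 12 members (26.7%, against 29.6% of all genes) and under 1 in 24 members (53.3%, against 51.2%). They lay on opposite sides of 1 in 9 members (20%, against 19.2%), among them the kinase MAP3K14 at 0.41 in IL-1ß replicate 3 and 1.24 in PRP lysate replicate 1. IL-1ß replicate 3 was the lowest of all 15 libraries for 29 members (64.4%), against 43.1% of all genes. The median SD of a member between libraries of its condition was 0.497 (log2) in IL-1ß and 0.251 in PRP lysate, against 0.140 in ACS, 0.183 in MSC-CM and 0.204 untreated. Over all genes these medians were 0.437, 0.326, 0.135, 0.191 and 0.199. The T cell and NK cell marker sums given above moved with these libraries, and their part in the result was not tested.

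Other genes of the pathway were given by 2 further lists, 42 symbols of additional machinery, of which 40 were tested, and 30 target genes of NF-kB, of which 29 were tested. In the additional machinery the genes past both thresholds were CD40 and IL1R2. CD40, a receptor of the TNF family that feeds NF-kB, stood at 79.4, 67.2 and 59.2 CPM with IL-1ß, 158, 190 and 156 CPM with PRP lysate, and 218, 205 and 171 CPM with ACS, without overlap. CD40 rose by 1.29 in PRP lysate and by 1.52 in ACS against IL-1ß (both limma, Benjamini-Hochberg adjusted p = 0.0011). IL1R2, the decoy receptor that binds IL-1 without signaling, stood at 43.7, 37.4 and 31.9 CPM with IL-1ß and at 135, 97.9 and 85.0 CPM with ACS, and rose by 1.45 (limma, Benjamini-Hochberg adjusted p = 0.0057). The signaling receptor IL1R1 averaged 14.2 CPM untreated and 11.8 CPM with IL-1ß, and did not pass the threshold in any comparison. Summed dendritic cell markers (6 of 6 found, and 4 of them averaging at least 1 CPM) came to 350 to 545 CPM with PRP lysate and 339 to 651 CPM with ACS, above the 276 to 338 CPM of the IL-1ß libraries. The sums were 269 to 431 CPM untreated and 281 to 401 CPM with MSC-CM, which overlapped both PRP lysate and ACS. Against IL-1ß they moved with CD40 and with the target genes CD83 and ICAM1 given next, and their part in the result was not tested.

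Several of the target genes passed both thresholds. Against IL-1ß, 3 of 29 were higher and 5 lower in PRP lysate, and 3 were higher and 1 lower in ACS, past both thresholds with limma. Of all genes, 1.07% were higher and 2.02% lower in PRP lysate, and 1.23% were higher and 0.98% lower in ACS. The list was chosen with earlier results of these data known. Its counts beside the shares of all genes are therefore no independent support, here and in the comparisons that follow. The 3 higher in PRP lysate were TNF, CSF2 and CD83, at log2 fold changes of 1.99, 1.82 and 1.05, and the 5 lower were VCAM1 (-4.00), IL6 (-2.55), SOD2 (-1.48), PLAU (-1.30) and NINJ1 (-1.15). In ACS, TNF, CD83 and ICAM1 were higher by 1.39, 1.10 and 1.01, and IL6 differed by -2.12. The calls of CD83 and ICAM1 in ACS, and that of CD83 in PRP lysate, were lost with RLE or TMM factors and with edgeR or DESeq2. SDC4 was called higher in PRP lysate and in ACS with RLE factors, TMM factors and DESeq2, and DESeq2 also called NINJ1 and VCAM1 lower in ACS. The call of IL6 in ACS was lost with a pseudocount of 0.1 and without the filter on low values. When PRP lysate and IL-1ß were fitted alone TNF was the single target gene called, and when ACS and IL-1ß were fitted alone 0 were. Target genes moved in both directions within each of these comparisons. MSC-CM against IL-1ß had 0 called with limma, edgeR or DESeq2. Before adjustment 7 of 29 had a limma p-value up to 0.05 there, all lower in MSC-CM, beside 5.6% of all genes, and edgeR gave 8 and DESeq2 9, also all lower. Leaving out 1 library at a time gave 1 to 7 with limma. It gave 1 without MSC-CM replicate 2 (1.63% of all genes), 3 without MSC-CM replicate 1 or IL-1ß replicate 2 (7.16% and 8.63%), and 4 without MSC-CM replicate 3 or IL-1ß replicate 3 (3.04% and 3.02%). Without IL-1ß replicate 1 the 7, of which 6 were lower, stood beside 22.7% of all genes and so near the background, and the block over all numbered libraries gave 1 (2.25%). IL-1ß against untreated had CXCL10 alone, at -1.56 (limma, Benjamini-Hochberg adjusted p = 0.0495). CSF3, which encodes the granulocyte growth factor G-CSF, stood at 5.41, 3.34 and 4.27 CPM untreated and at 34.7, 16.1 and 22.7 CPM with IL-1ß, without overlap. Its log2 fold change of 2.21 was not past the threshold with limma (Benjamini-Hochberg adjusted p = 0.104), and DESeq2 called it higher.

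Against MSC-CM, 6 target genes were higher and 3 lower in PRP lysate, and 5 were higher and 0 lower in ACS. Of all genes, 0.8% were higher and 1.81% lower in PRP lysate, and 0.593% were higher and 0.636% lower in ACS. In ACS against MSC-CM the count fell to 0 without ACS replicate 2 or MSC-CM replicate 3, to 1 (ICAM1) without ACS replicate 3 or MSC-CM replicate 1, and to 2 (CD83 and ICAM1) without ACS replicate 1 or MSC-CM replicate 2. In PRP lysate against MSC-CM the counts fell to 3 higher and 1 lower without MSC-CM replicate 3. The median log2 fold change of the 29 target genes was 0.47 in PRP lysate and 0.17 in ACS against IL-1ß, and 0.53 and 0.43 against MSC-CM. In MSC-CM against IL-1ß it was -0.21, with 22 of 29 lower, beside 0.16 over all genes, and -0.38 with RLE size factors, with 25 lower. It was -0.20 there when IL-1ß replicate 3 was left out, with 23 lower. The 2 values against MSC-CM stand beside medians of 0.06 and 0.11 over the 45 members against MSC-CM. Without IL-1ß replicate 3 the medians against IL-1ß were 0.28 and 0.11, and with RLE size factors that of ACS was 0.04. Without ACS replicate 2, 0 target genes were called in ACS against IL-1ß, and without IL-1ß replicate 3, 2 were higher and 0 lower. Without ACS replicate 3, ICAM1 alone was called there, and without IL-1ß replicate 2, CD83 and ICAM1. Without IL-1ß replicate 1 the count rose to 5 higher and 2 lower. In PRP lysate against IL-1ß the counts without IL-1ß replicate 3 were 2 higher and 4 lower, and without PRP lysate replicate 1 they were 6 higher and 5 lower. The call of CXCL10 was lost without any 1 of the IL-1ß or untreated libraries. These genes were named after their values were seen.

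**Figure D5:**
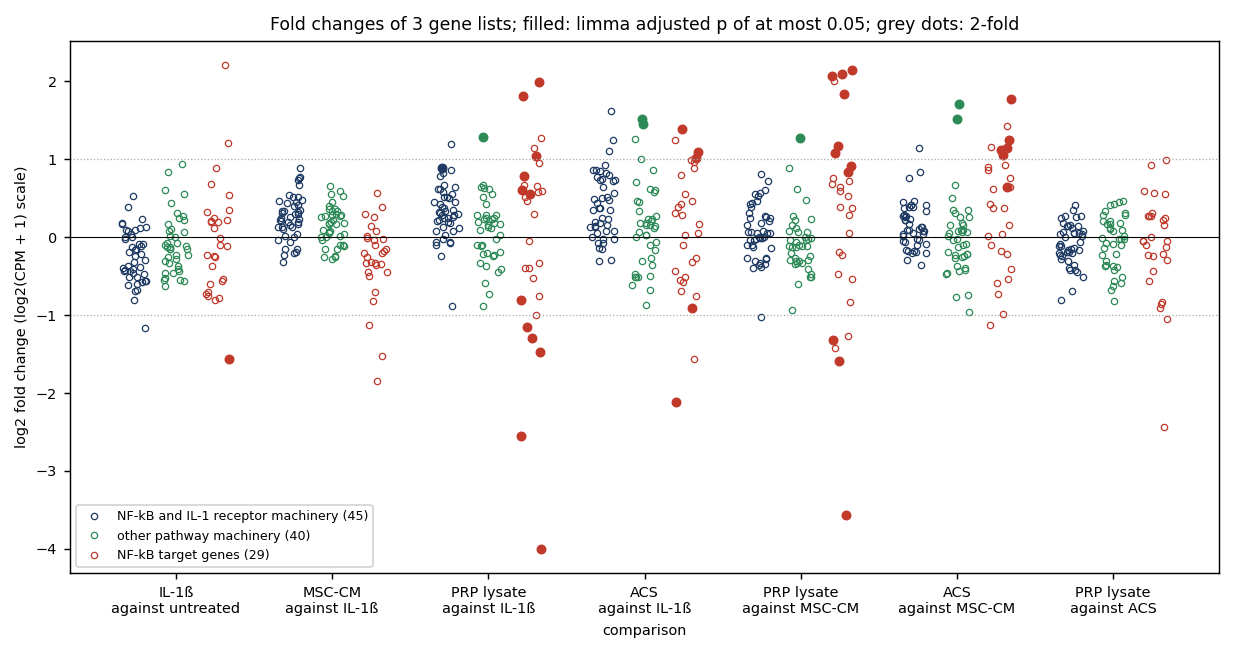
Log2 fold changes (vertical, log2(CPM + 1) scale) of the 45 members (blue), the 40 additional machinery genes (green) and the 29 target genes (red) in each of the 7 comparisons, with 1 point for each gene, filled where the limma adjusted p-value is 0.05 or less. In PRP lysate against IL-1ß the target genes reach from -4.00 to 1.99, and TRAF1 at 0.89 is the filled blue point.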

How the data were processed

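Polyadenylated RNA was sequenced in 15 libraries. The authors deposited CPM per gene for 16932 protein-coding genes, made in Partek Flow after trimming with cutadapt, alignment with STAR 2.7.3 to EquCab3.0 and counting with HTSeq. The strand setting was not given in the sources used here, so overlapping, antisense and near-identical genes remain uncertain. The labels have cells collected after 24 h of treatment, and the study's text has a wash and a further 24 h of culture before RNA; which applies is not settled. All 15 columns were matched by name. MSC-CM and PRP lysate came from the same 3 donor horses. The deviations of their same-numbered libraries from the condition means correlated at 0.63, 0.26 and 0.42. MSC-CM replicates 2 and 3 correlated as well with each other's PRP lysate number (0.39 and 0.47). IL-1ß replicate 3, which received no OT, correlated at 0.77 with PRP lysate replicate 1 and with MSC-CM replicate 1. These correlations therefore cannot show that a number marks a donor, and the number served as a block only in alternative fits. The labels do not tie a number to a horse.

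Reads were recovered from the CPM steps, and 99.5% of 253980 values were whole within 0.05. The main test was limma 3.58.1 (R 4.3.3) with an intensity trend on log2(CPM + 1), for the 11628 genes averaging 1 CPM or more, all 5 conditions in 1 model without pairing, and Benjamini-Hochberg adjustment within each comparison. Calls needed adjusted p up to 0.05 and a 2-fold or larger change. edgeR 4.0.16 and DESeq2 1.42.0 on recovered reads were alternatives. Scripts were tested on simulated data.

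Named members were those called in any comparison, up to 3 largest rises and falls per comparison with p up to 0.05 before adjustment and no overlap, and 7 core members (NFKB1, RELA, NFKBIA, TNFAIP3, IKBKB, MYD88 and IRAK1). Members and lists were chosen with earlier results of these data known. Summed markers of other cell types ranged over the libraries from 206 to 815 CPM for NK cells, 34.7 to 86.7 for B cells, 3.62 to 41.4 for platelets, 268 to 759 for neutrophils, 4.05 to 20.2 for stromal cells and 269 to 651 for dendritic cells. Promoter motifs were not analysed here.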

Additional observations from a re-analysis of the deposited data

How the results depend on the processing

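Of 103 counts of called members under alternative settings, 95 equaled the main count of 0. For PRP lysate against IL-1ß the count was 1 without a fold threshold (TRAF1, 4.94% of all genes). It was 1 with DESeq2 (IRAK3, -1.44, adjusted p = 0.0226, 4.1% of all genes) and 0 to 2 when leaving out each library in turn. It was 2 without IL-1ß replicate 1 (IRAK2 and OTULIN, 3.65% of all genes) and 1 without IL-1ß replicate 3 (IRAK3, 3.53%). For ACS against IL-1ß it was 1 with DESeq2 (REL, 1.31, adjusted p = 0.0355, 3.39% of all genes) and 0 to 6 when leaving out libraries. The 6 came without IL-1ß replicate 1 (BIRC3, CFLAR, IRAK2, MAP3K14, REL and TAB2, 6.06% of all genes). For ACS against MSC-CM the count was 1 when only these conditions were fitted (REL, 2.78% of all genes). For PRP lysate against MSC-CM it was 1 (IRAK3) with a replicate block on these 2 conditions alone, a fit chosen after seeing the data, in which 406 of all genes were called and the target genes numbered 6 higher and 3 lower. When each pair of conditions was fitted alone without a block, the calls of CD40 in PRP lysate and of IL1R2 in ACS, both against IL-1ß, were lost, as was that of TRAF1 (adjusted p = 0.161 with limma), and the called target genes fell to 1 in PRP lysate (TNF) and 0 in ACS against IL-1ß. The causes were not tested. All 283 values of the 19 named pairs of member and comparison kept their direction. These pairs were chosen because their libraries did not overlap, so leaving out 1 library could not turn the direction. In several other settings the fold change itself is unchanged, so the kept direction says little about stability. Scaling with RLE size factors moved the median of all genes from 0.16 to 0.00 in MSC-CM against IL-1ß and that of the members from 0.24 to 0.07, and the feedback genes changed sign there, from 0.01 to -0.17.

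Same-numbered libraries were not shown to be paired in any of the numbered conditions. Over these conditions, MSC-CM with PRP lysate included, the correlation of their deviations ran from -0.77 to 0.63 and exceeded 0.1 in 11 of 18 pairs. With a replicate block over all numbered libraries 0 members were called in the 4 comparisons without ACS, and TRAF1 in PRP lysate against IL-1ß had an adjusted p of 0.107 with limma. Under that block the called target genes fell to 2 higher and 2 lower in PRP lysate against IL-1ß (CSF2, TNF, IL6 and VCAM1), and to 3 higher and 1 lower against MSC-CM. ACS libraries carry no number. Precision rests on 3 libraries in each condition and not on depth. The search for kappa B motifs was not run.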
